A study of Mus musculus with 6 samples.

Results

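Egr1, Egr2 and Egr3 (EGR zinc finger transcription factors), Nab1 and Nab2 (their corepressors), Ier2, Ier3, Ier5 and Ier5l (immediate early response genes) and Srf (the serum response factor) were compared between RAW264.7 macrophages given the extract C2S and cells without it. These 10 genes were picked by family and function, with earlier results of these data known, from the 52636 genes of each expression table. All 10 were found by symbol. RAW264.7 is a mouse macrophage line from the BALB/c strain, kept in high-glucose DMEM with fetal bovine serum and antibiotics. RNA was sequenced in 6 libraries. Per the series design text, the 3 C2S libraries came from cells given 150 µg/ml of C2S for 24 h, and the other 3, labelled PM_control, were taken as the cells without C2S. The labels do not say what C2S holds or what PM stands for, nor whether the 3 libraries of a group came from separate cultures, so the p-values measure a spread that may be technical.

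Immediate early genes are transcribed within minutes of a stimulus without new protein synthesis, and their transcripts are usually short-lived. SRF binds CArG boxes in promoters such as that of Egr1, together with ELK factors that ERK and p38 kinases activate, or with actin-regulated MRTF cofactors. EGR proteins bind GC-rich sites. NAB proteins bind EGR1, EGR2 and EGR3 and repress through the NuRD complex, and Nab2 is itself described as an EGR target, so that NAB2 acts in a feedback on EGR activity. In mouse macrophages Egr1 and Egr2 are known from myeloid differentiation and Egr2 also from alternative activation.

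The totals were between 8594473 and 10491304 estimated reads in the C2S libraries and between 9149567 and 10665867 in the PM_control libraries. All 11 macrophage markers examined were detected well enough to be tested, with a summed level of 7094 to 7366 TPM (a level corrected for transcript length and depth) in C2S and 6923 to 7250 TPM in PM_control. Of these 11 markers 5 rose and 2 fell, a share called close to that of all tested genes, 55.4%. The summed level of 5 fibroblast, 5 epithelial and 5 T cell markers stayed at or below 0.23 TPM per list in every library. Summed endothelial markers were at 2.01 to 4.73 TPM in C2S and 0.48 to 0.53 TPM in PM_control. Pecam1 had 164 reads in the C2S libraries and 6 in the PM_control libraries (called higher, edgeR adjusted p = 5.31e-07). The other endothelial markers had too few reads to be tested and did not share this difference. Cdh5 had 17 reads in C2S and 13 in PM_control, Kdr 1 in C2S and 3 in PM_control, and Tek 2 in C2S and 0 in PM_control. Summed B cell markers were at 2.48 to 4.64 TPM in C2S and 0.12 to 0.54 TPM in PM_control, with Cd79a at 41 reads in all in C2S and 4 in PM_control and Cd79b at 30 in C2S and 3 in PM_control, while Ms4a1 was at 0 in every library. Summed neutrophil markers were at 2.49 to 6.18 TPM in C2S and 0 to 3.70 TPM in PM_control, with Mpo at 54 reads in all in C2S and 0 in PM_control (called higher, edgeR adjusted p = 1.54e-05) and S100a8 at 2 in C2S and 7 in PM_control, while Elane and S100a9 were at 0 in every library. The part of these markers in the results was not tested.

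All 10 genes changed, 6 upwards and 4 downwards. Egr1, Ier2, Ier3, Ier5, Ier5l and Srf rose with C2S, whereas Egr2, Egr3, Nab1 and Nab2 fell. A gene was called changed at a Benjamini-Hochberg adjusted p of at most 0.05 in edgeR's quasi-likelihood test over the 11561 genes with enough reads, of which 55.4% were called. In that background 27.0% of the tested genes were called higher and 28.4% lower. For all 10 genes the 3 libraries of each group lay on separate sides in CPM (reads scaled to library size), which held for 61.1% of the tested genes. The median log2 fold change of the 10 genes was 1.36, beside -0.0021 for all tested genes. In bulk RNA, fewer cells that express a gene and less RNA per cell cannot be told apart.

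**Figure D1:**
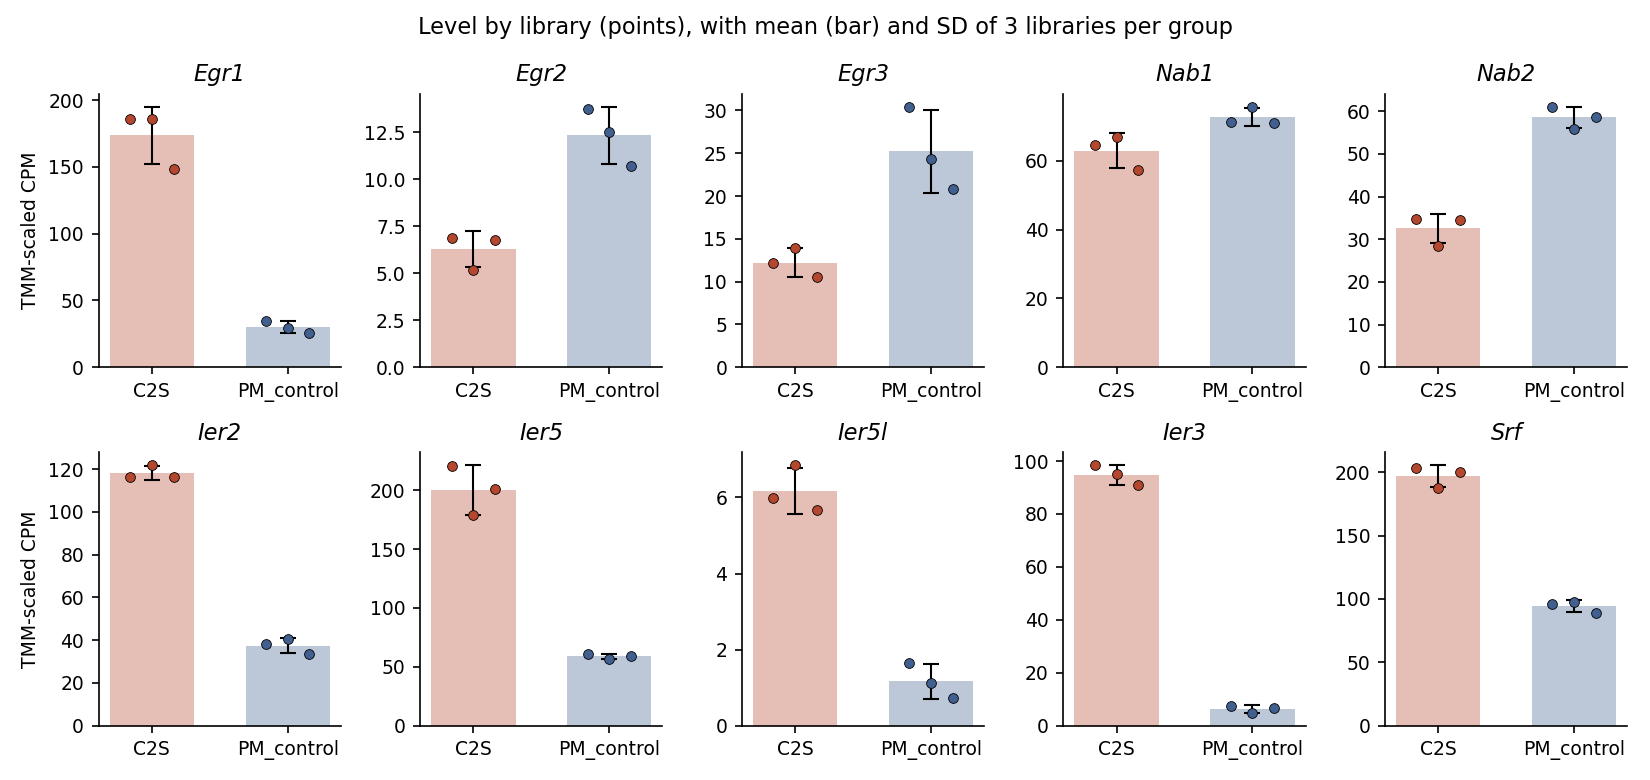
Level of each of the 10 genes in CPM after TMM scaling (y axis, from 0, a scale per gene) in the C2S and PM_control libraries. Points are libraries, bars are means and whiskers the SD of 3 libraries. The groups do not overlap in any panel, with C2S above PM_control for Egr1, Ier2, Ier5, Ier5l, Ier3 and Srf and below it for Egr2, Egr3, Nab1 and Nab2.

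Promoters were searched for the kinds of site that SRF, ETS, EGR, CREB and AP-1 factors are known to bind, and 4 of them are printed here. RefSeq windows of 300 bases (GRCm38.p6, from 250 bases before to 50 after the transcription start, 5′ to 3′ on the gene's strand, the start counted as position 0) were at hand for 7 of the 10 genes, and capitals mark every match to the motifs searched. Egr1, Egr3 and Ier2 had no window, so their promoters were not searched. Egr2 is shown as an EGR gene with a CArG box, Srf as a gene with sites for its own product, Nab1 for its EGR-type sites and Ier3 as the gene with the largest rise of the 10. The windows are Egr2 at chr10:67537619-67537918 on the + strand, Srf at chr17:46556113-46556412 on the - strand, Nab1 at chr1:52500399-52500698 on the - strand and Ier3 at chr17:35821463-35821762 on the + strand.
Egr2: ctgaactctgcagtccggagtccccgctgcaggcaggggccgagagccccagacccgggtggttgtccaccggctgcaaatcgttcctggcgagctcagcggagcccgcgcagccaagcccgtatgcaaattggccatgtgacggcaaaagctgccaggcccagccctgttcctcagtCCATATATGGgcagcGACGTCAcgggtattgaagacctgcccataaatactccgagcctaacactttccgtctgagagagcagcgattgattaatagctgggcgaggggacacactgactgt
Srf: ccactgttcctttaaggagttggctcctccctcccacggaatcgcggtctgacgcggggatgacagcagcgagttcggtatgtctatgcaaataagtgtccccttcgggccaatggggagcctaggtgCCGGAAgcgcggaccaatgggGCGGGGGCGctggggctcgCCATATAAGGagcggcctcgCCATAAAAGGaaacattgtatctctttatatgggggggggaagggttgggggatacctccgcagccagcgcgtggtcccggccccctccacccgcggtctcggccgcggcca
Nab1: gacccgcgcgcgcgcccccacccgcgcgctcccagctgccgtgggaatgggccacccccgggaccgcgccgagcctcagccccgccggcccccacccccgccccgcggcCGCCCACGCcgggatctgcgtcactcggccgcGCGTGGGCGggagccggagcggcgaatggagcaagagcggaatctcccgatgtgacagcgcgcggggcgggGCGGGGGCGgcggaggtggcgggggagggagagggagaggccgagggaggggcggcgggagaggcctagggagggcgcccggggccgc
Ier3: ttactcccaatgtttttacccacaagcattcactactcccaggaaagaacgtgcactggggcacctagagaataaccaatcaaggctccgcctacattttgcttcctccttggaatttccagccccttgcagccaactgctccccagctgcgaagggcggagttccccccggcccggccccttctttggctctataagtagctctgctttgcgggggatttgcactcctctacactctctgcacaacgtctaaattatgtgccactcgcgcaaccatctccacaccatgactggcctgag

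The Egr2 window holds a CArG box from -72 to -63 relative to the start and, on the opposite strand, TGACGTC from -57 to -51, the core of a cyclic AMP response element. Egr2 had 5 RefSeq windows, and 4 of them held a CArG box. The Srf window holds CArG boxes from -82 to -73 and from -62 to -53, the ETS-type motif CCGGAA from -122 to -117 and GCGGGGGCG, a GC-rich form of the EGR site, from -101 to -93. The Nab1 window holds the EGR consensus GCGTGGGCG at -141 to -133 on the opposite strand and at -109 to -101, and GCGGGGGCG at -38 to -30. The RefSeq start of Nab1 lies 231 bases downstream of the start of the GENCODE M21 transcript that begins furthest upstream. The Nab1 sites therefore lie downstream of that start, within the span of that transcript, and whether they are in its first exon was not examined. No match to any of the motifs lay in the Ier3 window, nor in those of Nab2, Ier5 and Ier5l, which are not printed. The motifs were searched on both strands, and no matches overlapped in these windows. Among all 32851 RefSeq promoter windows, 1.63% held a CArG box, 0.612% GCGTGGGCG, 2.91% GCGGGGGCG, 3.21% TGACGTC, 14.9% CCGGAA and 5.2% TGACTCA, the AP-1 site. TGACTCA was in none of the 7 windows. These matches describe letters and not binding. Of the genes with a CArG box in the window, Egr2 fell and Srf rose, as described next.

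The EGR factors moved in opposite directions. Egr1 (chr18:34859823-34864984, + strand, 2 exons) encodes an EGR factor induced by many growth and stress signals. It had 1894, 1547 and 1312 estimated reads in C2S and 378, 288 and 246 in PM_control. After scaling these were 186, 186 and 149 CPM in C2S and 34.7, 29.1 and 25.8 CPM in PM_control, so that the lowest C2S library lay far above the highest PM_control library. Egr1 rose 5.79-fold (log2 fold change 2.53 ± 0.11 SE, edgeR adjusted p = 4.42e-12), and 2.47% of the tested genes had a larger fitted rise. Coordinates here and below are those of the whole gene on GRCm38 in GENCODE M21, and exon counts are those of its longest transcript there. In all comparisons n is 3 libraries per group.

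Egr2 (chr10:67535475-67542188, + strand, 2 exons) encodes the EGR factor known from myelination and hindbrain patterning and, in mouse macrophages, as a marker of alternative activation. It had 70, 43 and 60 estimated reads in C2S and 150, 124 and 102 in PM_control. The highest C2S library stayed below the lowest PM_control library. Mean levels were 6.28 ± 0.96 CPM in C2S and 12.3 ± 1.54 CPM in PM_control (SD), and Egr2 fell by 0.97 ± 0.18 on the log2 scale (edgeR adjusted p = 0.000194). Egr3 (chr14:70077203-70082614, + strand, 2 exons), which acts with Egr2 in lymphocyte activation, had 124, 116 and 93 estimated reads in C2S and 332, 241 and 199 in PM_control. The groups did not overlap, at 10.5 to 13.9 CPM in C2S and 20.9 to 30.5 CPM in PM_control, the PM_control libraries being the more spread out. Egr3 fell by 1.05 ± 0.15 on the log2 scale (edgeR adjusted p = 2.05e-05). Of the tested genes, 7.77% had a larger fall than Egr2 and 6.50% a larger fall than Egr3. Egr4, the remaining family member, had 0, 1 and 0 reads in C2S and 0 in each PM_control library, and was not tested.

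The makeup of the family changed with these shifts. In TPM, where genes can be compared with each other, Egr1 made up 88.3%, 90.1% and 88.7% of the summed Egr1, Egr2 and Egr3 level in the C2S libraries, against 32.7%, 38.2% and 40.7% in the PM_control libraries. Egr1 was thus by far the most abundant of the family transcripts in every C2S library, and took a minority of them in every PM_control library. Egr2 made up 4.10% ± 1.03 in C2S and 26.0% ± 8.21 in PM_control, and Egr3 6.83% ± 0.57 in C2S and 36.8% ± 4.88 in PM_control (SD). The Egr2 share was 35.4% in PM_control 1, beside 20.2% and 22.4% in PM_control 2 and 3. In PM_control 1 these shares, and TPM sums and ratios that include Egr2, depend on the short Egr2 transcript length given below. The summed level of the 3 genes was 92.3, 95.9 and 71.5 TPM in C2S and 50.6, 34.9 and 30.8 TPM in PM_control, without overlap. An exact two-sided permutation test of each share gave p = 0.1, the smallest p that 3 against 3 libraries allow.

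**Figure D2:**
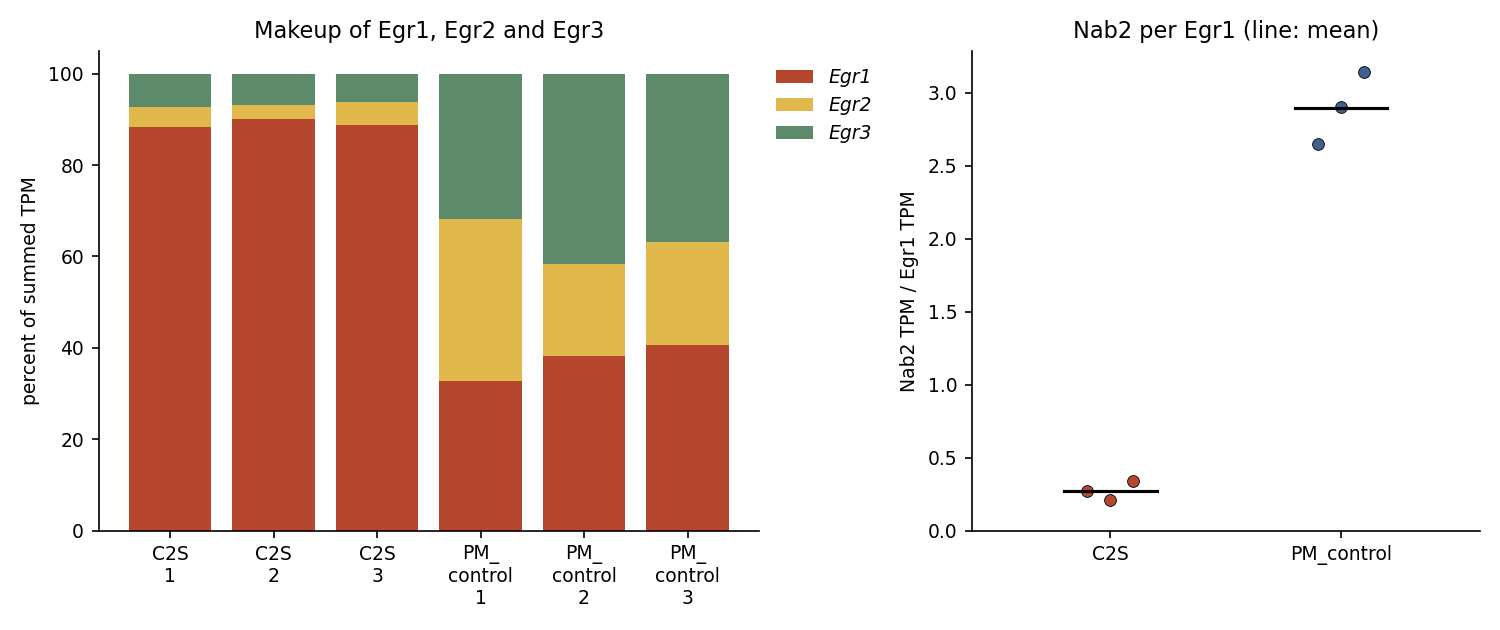
Left, the percent of the summed TPM of Egr1, Egr2 and Egr3 (y axis) that each gene took in each of the 3 C2S and 3 PM_control libraries (x axis). Right, the ratio of Nab2 TPM to Egr1 TPM, with points for libraries and a line for the mean: Egr1 takes at least 88.3% in C2S and at most 40.7% in PM_control, and Nab2 per Egr1 averages 0.275 in C2S and 2.90 in PM_control.

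For Egr2 the reads and the TPM values set the libraries apart differently. Its deposited TPM values were 3.96, 2.86 and 3.59 in C2S and 17.9, 7.03 and 6.91 in PM_control. The PM_control 1 library stood apart in TPM and not in reads, and there the deposited mean transcript length of Egr2 was 1445 bases, against 2598 and 2954 in the other PM_control libraries and 2709 to 2922 in C2S. On a log2(TPM + 0.1) scale with limma Egr2 fell by 1.45 (adjusted p = 0.0172). Without PM_control 1, Egr2 fell by 0.89 on the reads (edgeR adjusted p = 0.00185). The exact two-sided permutation test of mean transcript length between groups gave p = 0.4 for Egr2 (adjusted 0.833 over the 5 of the 10 genes whose length varied between libraries). For Egr1, Egr3, Nab1 and Nab2 the exact p was between 0.5 and 1.0, and the lengths of the groups overlapped for all 5. For Egr1, whose length lay between 3343 and 3547 bases in C2S and between 3364 and 3561 in PM_control, the transcript lengths of the groups overlapped while the levels did not.

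**Figure D3:**
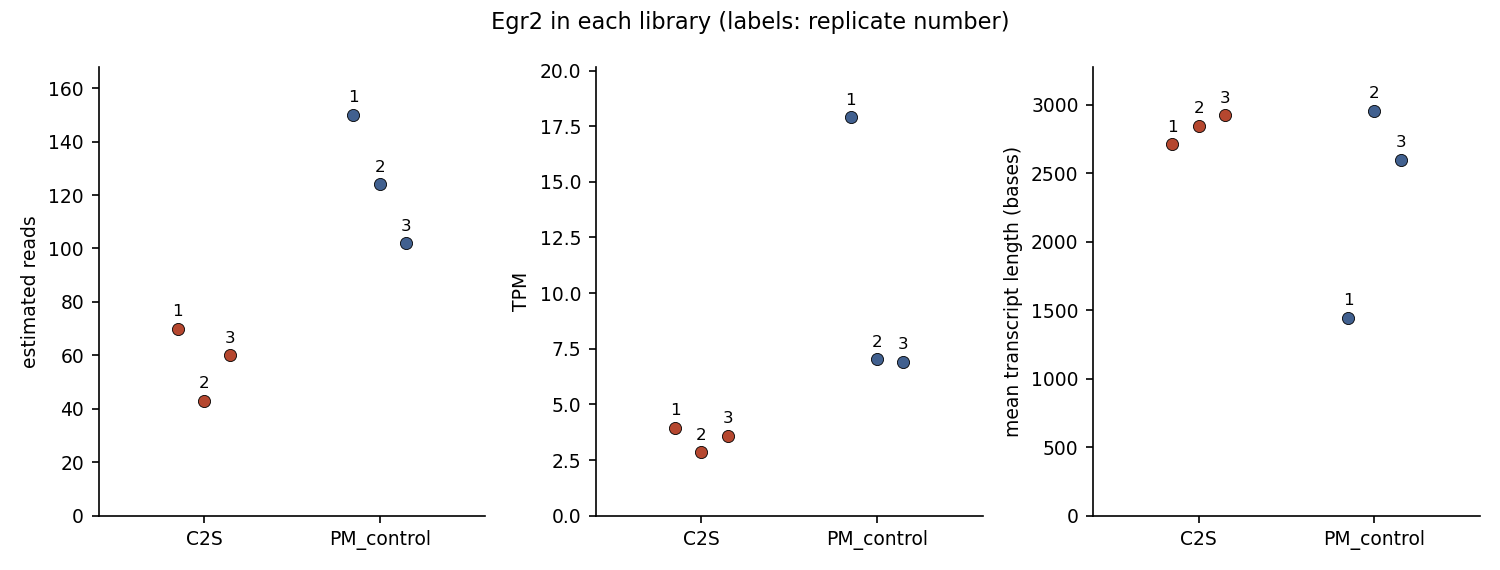
Egr2 in each C2S and PM_control library as estimated reads (left), TPM (middle) and mean transcript length in bases as deposited (right), all y axes from 0, with the replicate number above each point. PM_control 1 is at 17.9 TPM beside 7.03 and 6.91 in the other PM_control libraries, and has the shortest length, 1445 bases.

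Both corepressor genes fell. Nab2 (chr10:127660918-127668568, - strand, 7 exons) had 353, 237 and 304 estimated reads in C2S and 665, 553 and 560 in PM_control. All 3 C2S libraries were below all 3 PM_control libraries, at 32.5 ± 3.50 CPM in C2S and 58.6 ± 2.55 CPM in PM_control (SD). Nab2 fell by 0.85 ± 0.09 on the log2 scale (edgeR adjusted p = 7.51e-07). Its value is uncertain as to source, since Gm16229 on the opposite strand covers 35.7% of the exon length of Nab2 and whether reads were counted by strand is not given in the sources used here. Both genes had whole estimated counts in every library, within 0.005 of a whole number. Gm16229 had 76, 55 and 57 estimated reads in C2S and 149, 118 and 127 in PM_control, and fell by 0.92 ± 0.16 on the log2 scale (edgeR adjusted p = 0.000115). No other gene of the 10 overlapped the exons of another gene.

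Nab1 (chr1:52457294-52500679, - strand, 8 exons), the NAB gene usually described as expressed more constantly, had 658, 558 and 506 estimated reads in C2S and 779, 750 and 677 in PM_control. The groups lay close without overlapping, at 57.3 to 67.1 CPM in C2S and 71.0 to 75.8 CPM in PM_control. Nab1 fell by 0.21 ± 0.08 on the log2 scale (edgeR adjusted p = 0.0373), and 34.3% of the tested genes had a larger fall. This call was lost in 10 of 23 alternative analyses, among them the omission of any single library other than C2S 2, and over all 23 the adjusted p from edgeR, limma or DESeq2 lay between 0.00482 and 1.0. The NAB transcripts relative to the EGR transcripts also differed: the summed Nab1 and Nab2 level over the summed Egr1, Egr2 and Egr3 level in TPM was 0.540 ± 0.078 in C2S and 1.93 ± 0.38 in PM_control (SD). Nab2 per Egr1 was 0.271, 0.213 and 0.341 in C2S and 2.65, 2.90 and 3.14 in PM_control. Nab2 was therefore the less abundant transcript of that pair in each C2S library and the more abundant in each PM_control library. Nab2 over Nab1 was 0.823 ± 0.128 in C2S and 1.29 ± 0.073 in PM_control (SD). None of the library groups overlapped for these ratios, each with an exact permutation p of 0.1, the smallest possible.

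Srf (chr17:46548329-46556175, - strand, 7 exons) is the factor that binds CArG boxes in many immediate early and cytoskeletal genes. It had 2073, 1560 and 1771 estimated reads in C2S and 1047, 968 and 851 in PM_control. The C2S libraries were tightly grouped at 188 to 204 CPM, and the PM_control libraries at 89.3 to 97.9 CPM, with a wide gap between the groups. Srf rose 2.09-fold (log2 fold change 1.06 ± 0.06, edgeR adjusted p = 4.55e-10), the smallest fitted rise of the 6 genes that rose.

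Of the immediate early response genes, Ier3 had the largest fitted rise. Ier3 (chr17:35821684-35822923, + strand, 2 exons), also called IEX-1, encodes a stress-inducible regulator of cell survival and ERK signalling. It had 1001, 791 and 803 estimated reads in C2S and 83, 46 and 64 in PM_control. Levels were 98.3, 95.1 and 90.9 CPM in C2S and 7.62, 4.65 and 6.72 CPM in PM_control, a range in either group that was small beside the gap between them. Ier3 rose 14.9-fold (log2 fold change 3.90 ± 0.12, edgeR adjusted p = 1.24e-13), with 1.16% of the tested genes rising more.

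Ier2 and Ier5 both rose. Ier2 (chr8:84661331-84662852, - strand, 1 exon) encodes a nuclear protein of the immediate early response. It had 1186, 1014 and 1028 estimated reads in C2S and 416, 401 and 321 in PM_control. Mean levels were 118 ± 3.15 CPM in C2S and 37.5 ± 3.48 CPM in PM_control (SD), well apart in every library. Ier2 rose 3.15-fold (log2 fold change 1.66 ± 0.08, edgeR adjusted p = 3.33e-11). Ier5 (chr1:155096361-155099636, - strand, 1 exon), whose product binds the phosphatase PP2A and the heat shock factor HSF1, had 2249, 1486 and 1778 estimated reads in C2S and 665, 560 and 566 in PM_control. The C2S libraries ranged from 179 to 221 CPM, and the PM_control libraries from 56.6 to 61.0 CPM. Ier5 rose 3.40-fold (log2 fold change 1.76 ± 0.08, edgeR adjusted p = 9.02e-12). No test of the difference between the rises of these genes was run.

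Ier5l (chr2:30471537-30474219, - strand, 1 exon), a paralogue of Ier5 with a less known role, was the least abundant gene of the set in PM_control. It had 61, 57 and 50 estimated reads in C2S and 18, 11 and 7 in PM_control, where 3 reads correspond to 0.281 to 0.349 CPM depending on the library. Few as they are, the reads of the lowest C2S library were still more than those of the highest PM_control library. Ier5l rose 5.17-fold (log2 fold change 2.37 ± 0.31, edgeR adjusted p = 6.27e-06). Its fitted log2 rise was between 1.42 on log2(TPM + 1), where a pseudocount of 1 is larger than the PM_control level, and 2.71 with edgeR when PM_control 1 was left out. Relative to Ier5, Ier5l in TPM was 0.0338, 0.0477 and 0.0350 in C2S and 0.0336, 0.0244 and 0.0155 in PM_control, groups that all but met.

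**Figure D4:**
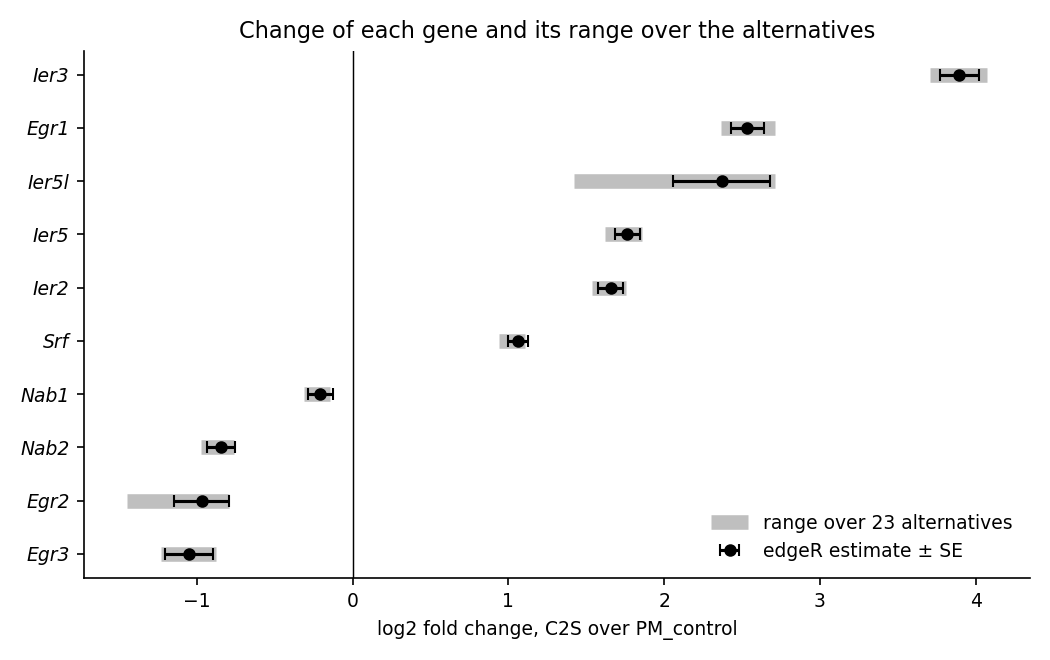
Log2 fold change of C2S over PM_control (x axis) for each of the 10 genes, as the edgeR estimate with its SE (point and whisker) and the range over 23 alternative analyses (grey bar). No grey bar crosses 0: Nab1 comes nearest, from -0.31 to -0.14, and Ier3 lies farthest, from 3.71 to 4.07.

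The order of the levels changed as well. In TPM the order in C2S was Ier3 (154 ± 7.10), Ier2 (133 ± 4.69), Ier5 (94.0 ± 9.16), Egr1 (77.2 ± 12.1), Srf (72.8 ± 2.40), Nab1 (25.4 ± 2.0), Nab2 (20.7 ± 2.0), Egr3 (5.96 ± 1.3), Ier5l (3.61 ± 0.40) and Egr2 (3.47 ± 0.56), as mean ± SD. Neighbours whose ranges overlapped in C2S were Ier5 and Egr1, Egr1 and Srf, and Ier5l and Egr2. In PM_control the order was Ier2 (45.2 ± 4.39), Nab2 (40.7 ± 2.87), Srf (37.5 ± 2.02), Nab1 (31.5 ± 1.18), Ier5 (29.8 ± 1.48), Egr1 (14.1 ± 2.13), Egr3 (14.0 ± 2.43), Ier3 (11.1 ± 2.71), Egr2 (10.6 ± 6.31) and Ier5l (0.733 ± 0.297). There, Egr1, Egr3, Ier3 and Egr2 each overlapped their neighbour in the order, as did Ier2 with Nab2, Nab2 with Srf, and Nab1 with Ier5. Ier3 moved furthest, leading the set in C2S while lying among the low EGR genes in PM_control. Ier3 over Ier2 was 1.16 ± 0.056 in C2S and 0.248 ± 0.070 in PM_control (SD). Among all tested genes Egr1 stood at the 82.3rd percentile of TPM in C2S and the 37.9th in PM_control, and Ier3 at the 91.4th in C2S and the 32.3rd in PM_control. Egr2 stood at the 15.6th percentile in C2S and the 31.4th in PM_control, and Ier2 at the 89.9th in C2S and the 68.9th in PM_control.

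The genes share a compact structure, except Nab1, Nab2 and Srf. In the longest transcript of each gene, Ier2, Ier5 and Ier5l have 1 exon and Egr1, Egr2, Egr3 and Ier3 have 2. Other transcripts of Egr1, Egr2 and Egr3 differ in exon number. Among nuclear protein-coding genes tested, the median log2 fold change was -0.09 for 1 exon (588 genes) and -0.19 for 2 exons (694 genes). It was -0.04 for 3 to 9 exons (4760 genes), the class of Nab1, Nab2 and Srf, and 0.06 for 10 or more (4528 genes). Egr2 and Egr3 thus fell within a class whose median lay below 0, and Egr1 and Ier3 rose within that same class. Exon GC content also went with the fold change, from a median of -0.30 in the lowest decile of genes by GC to 0.15 in the highest. Nab2, Ier2, Srf and Ier5l are in that highest decile, at 60.1%, 60.9%, 64.4% and 63.8% GC. With the exon trend removed Egr2 fell by 0.80 (edgeR adjusted p = 0.00105), and with the GC trend removed it fell by 1.00 (edgeR adjusted p = 0.000139). The estimated counts of all 10 genes were within 0.005 of a whole number in every library.

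Profiles over the 6 libraries were searched among 9082 genes with at least 5 CPM on average. Genes without a symbol or with a predicted-gene or clone-type name were left out of that search. The genes nearest to each of the 10 were found by the Euclidean distance of mean-centred log2 CPM. For Egr1 these were Tob1 (distance 0.154) and Foxo3 (0.197), and for Srf Plekho2 (0.0556) and Trafd1 (0.113). For Ier2 the nearest was Fosl1 (0.0816), which encodes an AP-1 subunit, followed by Insig1 (0.149). For Ier3 they were Pim1 (0.342) and Trp53cor1 (0.435), for Ier5 Mknk2 (0.190) and Qpctl (0.199), and for Ier5l Crebrf (0.333) and Pik3r3 (0.472). For Egr2 they were Arhgef40 (0.140) and Pank1 (0.162), for Egr3 Dffb (0.199) and Ccdc14 (0.231), for Nab1 Ryk (0.0521) and Ccdc47 (0.0681), and for Nab2 Akna (0.109) and Keap1 (0.115). Ier3 and Ier5l had the most distant nearest genes. A distance over 6 libraries is set largely by the size of the group difference.

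The genes that act with or under the set were described from lists, by the count called and the median alone, and the genes named as risen or fallen passed the same edgeR test. Of the 5 SRF cofactors tested, 1 rose and 1 fell, with a median log2 fold change of -0.05. Of all tested genes 27.0% were called higher and 28.4% lower, so the cofactors were not called more often than other genes. Elk1 rose by 0.72 ± 0.11 on the log2 scale (edgeR adjusted p = 2.12e-05) and Elk3 fell by 1.17 ± 0.10 (edgeR adjusted p = 5.47e-08). Elk4, Mrtfa and Mrtfb, chosen after their values were seen, did not pass, at log2 fold changes of 0.07, -0.05 and -0.16. Both Elk1 and Elk3 encode ternary complex factors that bind DNA beside SRF, Elk3 being known also as a repressor. Elk1 averaged 32.1 ± 2.48 CPM in C2S and 19.5 ± 1.03 CPM in PM_control, and Elk3 45.4 ± 7.41 CPM in C2S and 102 ± 7.10 CPM in PM_control (SD). Without C2S 2, 2 of the cofactors were called lower.

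Of 20 kinases of the RAF to ERK, p38 and JNK cascades and of the RSK and MSK families, 11 rose and 4 fell, with a median log2 fold change of 0.20, beside 27.0% of all tested genes called higher and 28.4% lower. Rps6ka5 (MSK1), a kinase of CREB and histone H3, rose by 0.97 ± 0.12 and Map2k3, a p38 kinase kinase, by 0.48 ± 0.06 on the log2 scale. Map2k7, a JNK kinase kinase, fell by 0.35 ± 0.09 and Rps6ka3 (RSK2), a kinase activated by ERK, fell by 0.18 ± 0.07. The count of falls depended on single libraries: 2 kinases were called lower without C2S 1, C2S 2 or C2S 3, and 1 without PM_control 1 or PM_control 2.

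SRF and MRTF target genes of the cytoskeleton were measured for 25 genes, 18 of them tested. Of these, 10 rose and 4 fell, with a median log2 fold change of 0.31, set against 27.0% higher and 28.4% lower among all tested genes. Zyx, a focal adhesion protein, rose by 1.61 ± 0.11 and Pdlim7, an actin-bound LIM protein, by 1.48 ± 0.09. Itga5, a fibronectin receptor subunit, fell by 1.20 ± 0.07 and Tpm1, a tropomyosin, by 0.25 ± 0.07. At a change beyond 1.5-fold, tested with edgeR's glmTreat, 4 of the list rose and 1 fell, beside 16.7% of all tested genes.

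Of 20 genes described as EGR targets, 16 were tested, 8 rose and 4 fell, with a median of 0.31. Of all tested genes 27.0% were called higher and 28.4% lower, so that the share of falls in the list was near the background. The list includes Nab2 itself. Vegfa, the angiogenic growth factor, had 156 ± 28.7 CPM in C2S and 2.31 ± 0.36 CPM in PM_control (SD) and rose by 6.07 ± 0.16 on the log2 scale. Icam1, a leukocyte adhesion receptor, rose by 1.24 ± 0.06. Plau, the urokinase plasminogen activator, fell by 1.63 ± 0.08 and Pdgfb, a growth factor chain, by 1.21 ± 0.07. Genes of this list therefore lay on either side of 0, and without C2S 2 only 5 were called higher.

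Of 13 NuRD subunits, through which NAB proteins repress, 6 rose and 3 fell, with a median of 0.21. Among all tested genes 27.0% were called higher and 28.4% lower. Gatad2b rose by 0.67 ± 0.07 and Chd3 by 0.61 ± 0.07, while Hdac2 fell by 0.38 ± 0.08 and Mta2 by 0.18 ± 0.06. Chd4, the helicase that NAB2 is known to contact, was at 874 ± 42.4 CPM in C2S and 899 ± 46.1 CPM in PM_control (SD) and did not pass, and it was chosen after its value was seen. Of 17 genes tied to IER5 through HSF1 and PP2A, 9 rose and 2 fell, with a median of 0.22. The shares of all tested genes beside this are the same 27.0% higher and 28.4% lower. Dnajb1 and Bag3, chaperone system genes that HSF1 drives, rose by 1.56 ± 0.11 and 1.23 ± 0.07, whereas Ppp2r2a, a PP2A regulatory subunit, fell by 0.37 ± 0.07 and Hspa4, a cytosolic chaperone, fell by 0.27 ± 0.07.

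Among 40 other immediate early genes, 37 were tested, 30 rose and 5 fell, with a median of 2.36, against 27.0% higher and 28.4% lower in the background. Jun, an AP-1 subunit, rose by 3.91 ± 0.07 and Atf3, a stress-induced ATF factor, by 4.27 ± 0.09, both above the rise of Egr1. Myc fell by 2.40 ± 0.33 and Rgs2 fell by 1.26 ± 0.11, as Egr2 and Egr3 did.

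**Figure D5:**
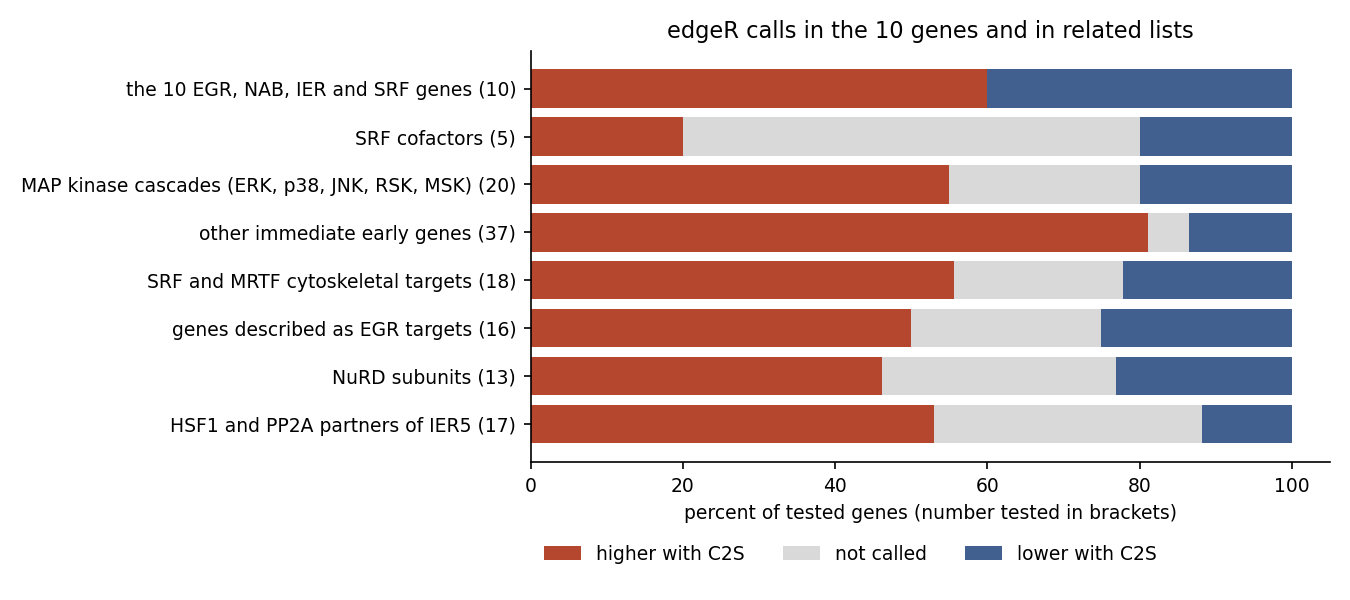
Percent of the tested genes (x axis) of the 10 genes and of 7 related lists that edgeR called higher with C2S (red), did not call (grey) or called lower (blue), with the number tested in brackets. Other immediate early genes show the most calls upwards, 30 of 37, and each list holds calls in both directions.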

How the data were processed

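Trizol RNA went into Illumina TruSeq libraries, per the series design text, which names fastp for trimming, STAR for alignment to mm10, RSEM for quantification and edgeR as the authors' test. Which tool versions, gene models and strand setting were used is not given in the sources used here. The authors deposited, per library, expected counts (RSEM's estimated reads per gene), TPM (scaled for transcript length and depth) and an abundance-weighted mean transcript length in bases, per the file headers.

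In R 4.3.3, the rounded expected counts were scaled by TMM, filtered by filterByExpr at its defaults (minimum count 10, minimum total 15) and tested in edgeR 4.0.16 by quasi-likelihood with a group term alone. Adjustment was by Benjamini-Hochberg over 11561 genes, which hold 99.85% of all counts. The alternatives also used DESeq2 1.42.0 and limma 3.58.1. The common biological coefficient of variation was 7.52%. CPM values are TMM-scaled. Fold changes set C2S over PM_control, and the SE is the size of the change over the square root of F, so it is approximate. Libraries of a group differed by more than sampling noise, with chi-square over degrees of freedom of 4.30 to 6.46 over genes with at least 20 counts, so none was taken as a repeat deposit of another, which does not show that they were separate cultures. Ratios and transcript lengths were compared by exact permutation tests.

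The members and lists were chosen with earlier results of these data known. All 10 genes are reported, with at most 2 called genes per direction from each list, the 2 nearest profiles per gene, and a few others said to be chosen after their values were seen. Gm16229 and the markers of other cell types named without a call were also chosen so. Coordinates, exons and overlaps come from GENCODE M21 (GRCm38). Of 33126 genes with 1 transcript in the deposited tables that M21 also holds, 95.6% had the same length in both. The Srf transcript did not, at 4093 bases in the tables and 2616 in M21, so the authors' annotation was not exactly that release. Promoters are from RefSeq. The 23 alternatives covered normalization, filters, tools, trends, the replicate block and the omission of each library.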

Additional observations from a re-analysis of the deposited data

How the results depend on the processing

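No result reversed under any of the 23 alternatives, and Egr1, Egr2, Egr3, Nab2, Ier2, Ier3, Ier5, Srf and Ier5l kept their calls in all of them. Nab1 lost its call under RLE normalization, glmTreat, removal of the GC or exon number trend, DESeq2, and without C2S 1, C2S 3, PM_control 1, PM_control 2 or PM_control 3, so 6 genes of the set were always called higher and 3 or 4 lower. Of all tested genes, 3123 were called higher and 3282 lower, against 2478 and 3999 with library sizes alone, 920 and 1008 beyond 1.5-fold with glmTreat, 1717 and 3065 with limma on log2(TPM + 1), and 1705 and 3049 on log2(TPM + 0.1). Higher calls outnumbered lower ones under RLE normalization (3249 and 3167), with no low-count filter (3572 and 3512) and with DESeq2 (3043 and 2952). They also did so with the GC trend removed (3361 and 2891) and with the exon number trend removed (3271 and 3202). The median log2 fold change of all genes moved to 0.10 with no low-count filter and to -0.10 on log2(TPM + 0.1). With library sizes alone, 2 SRF cofactors and 4 HSF1 and PP2A genes were called lower. With glmTreat, higher and lower calls were 2 and 0 for kinases, 4 and 1 for cytoskeletal targets, 0 and 0 for NuRD subunits, and 4 and 0 for HSF1 and PP2A genes, with 0 SRF cofactors and 2 EGR targets higher and 3 other immediate early genes lower, as the construction of that test implies. With limma on either TPM scale, 5 kinases were called higher and 2 lower, 3 EGR targets higher, and 4 HSF1 and PP2A genes lower. DESeq2 called 1 kinase lower. Leaving out each library gave 1 to 3 kinases lower, 1 to 2 SRF cofactors lower and 5 to 8 EGR targets higher, and for all tested genes 2920 to 3150 higher and 2981 to 3188 lower. Where a count moved in these comparisons other than glmTreat, the cause was not tested. Deviations of same-numbered libraries correlated at -0.011, 0.069 and 0.034, and those of libraries with unlike numbers at -0.107 to 0.082. Such values show no pairing by replicate number, but cannot exclude it, since a weak shared effect would leave them near 0 too. The replicate block gave 3192 genes higher and 3297 lower, with 6 of the set higher and 4 lower. Of 322 recomputed list counts, 293 stayed within 1.5 times the count given. Depth limits Ier5l and Egr2 most, since their lowest libraries hold 7 and 43 reads.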
